A study of Mus musculus with 3 samples.

Results

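The imprinted region of distal mouse chromosome 12 between Begain and Dio3 was followed through all array probes that carry the name of Dlk1, Meg3 (also written Gtl2), Rtl1, Rian, Mirg, Dio3 or Begain. These names were borne by 10 of the 39429 probes, which belong to 6 of the 7 genes, since no spot is named Rian. The probes lie between chr12:110270408 and chr12:111518851 (mm9, the build of the array annotation). The RNA came from mouse embryoid bodies, floating aggregates in which embryonic stem cells form many cell types, cultured for 10 days in suspension without LIF, the cytokine that keeps such cells undifferentiated. The 3 wild-type replicates were compared with 3 replicates that carry Dido3deltaCT, a Dido3 protein truncated at its C terminus, and overexpress the missing C-terminal region (HADido3CT). The latter group is called mutant+CT here. No sample had the truncation without the construct, so their effects cannot be told apart. The strain, sex and number of clones behind each group are not given in the sources used here.

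Imprinted genes are transcribed mainly from 1 parental chromosome. In this region the paternal chromosome expresses the protein-coding genes Dlk1, Rtl1 and Dio3, and the maternal chromosome expresses the noncoding RNAs Meg3, Rian and Mirg together with a transcript antisense to Rtl1, which carry many microRNAs and small nucleolar RNAs. A control element between Dlk1 and Meg3, methylated on the paternal chromosome, keeps the parental patterns apart, and silencing of Meg3 is a known variation between pluripotent mouse stem cell lines. The arrays measured total RNA per gene and cannot tell the parental alleles apart.

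Probes of the noncoding RNAs are shown because the results turn on them. Each is a 60-base oligonucleotide on the plus strand, printed 5′ to 3′ from the array files. The 3 Meg3 probes are named here by their order along the chromosome. The middle and the last carry different RefSeq transcripts of Meg3 in the array annotation.
Middle Meg3 probe (A_52_P196568, chr12:110799558-110799617): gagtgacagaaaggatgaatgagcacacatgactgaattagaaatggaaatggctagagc
Last Meg3 probe (A_51_P455997, chr12:110809678-110809737): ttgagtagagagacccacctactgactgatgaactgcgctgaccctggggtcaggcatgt
6430411K18Rik, antisense to Rtl1 (A_55_P1979753, chr12:110830889-110830948): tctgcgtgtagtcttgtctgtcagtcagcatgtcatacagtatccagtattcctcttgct
First Mirg probe (A_55_P2336173, chr12:110979653-110979712): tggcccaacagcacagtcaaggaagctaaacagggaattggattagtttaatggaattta
Second Mirg probe (A_66_P121059, chr12:110987569-110987628): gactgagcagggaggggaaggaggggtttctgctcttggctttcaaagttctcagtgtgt
Which exons the probes fall in was not determined, because no annotation of mm9 was used here. The GC content of those shown was 41.7% and 55.0% for Meg3, 45.0% for 6430411K18Rik, and 40% and 53.3% for Mirg. The first Mirg probe is named Mirg by the array and did not match a RefSeq accession.

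On each of the 3 arrays the RNAs of both groups competed in different dyes. Cy5 marked wild type on replicates 1 and 3, and on replicate 2 the dyes were swapped. Signals below are mean spot brightness before normalization, with a local background of 29.0 to 53.0 around the probes of the region and its neighbours. They differ between replicates in part through dye and scan, so the log2 ratio of mutant+CT over wild type within an array is the measurement compared. Statements that the groups do or do not overlap refer to the unnormalized signals unless normalization is named. The share of all probes whose groups separate was not counted. Such statements therefore describe single probes and do not show how unusual a separation is. Across arrays they also carry the differences of dye and scan. Between 68.1% and 78.5% of spots in a channel were well above background, and 26318 probes passed the filter, which asked for this on all 3 arrays in either group. Of the 10 probes of the region, 9 passed, and none of the 10 had a saturated or outlying spot. The ratios of all these 26318 probes correlated at 0.21 between arrays 1 and 2, 0.56 between 1 and 3, and 0.37 between 2 and 3 (Pearson, across probes, which are not independent replicates). The targeted gene, Dido1, had 4 probes with mean ratios from -2.39 to 3.53, of which the highest alone passed the test described next (adjusted p 0.0435 by limma). Where the text calls a probe changed, limma's moderated test with Benjamini-Hochberg adjustment over all 26318 probes gave an adjusted p under 0.05.

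Meg3, a long noncoding RNA and the start of the maternally expressed transcription unit, was higher in mutant+CT at all 3 probes on all 3 arrays, and the middle probe passed the test. At the middle probe the wild-type signal was 105, 289 and 211 on replicates 1 to 3. The mutant+CT signal there was 3121, 5521 and 5226. Every mutant+CT sample was thus far above every wild-type sample, and the wild-type signals were near the low end of the scale but well above background on all 3 arrays. As log2 ratios these pairs were 4.31, 4.44 and 4.72, a mean of 4.49 ± 0.21 (SD, n = 3) or 22.5-fold, with a limma adjusted p of 0.0435. It had the smallest p of the 26318 probes and the 4th highest mean ratio.

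The outer Meg3 probes showed smaller ratios. At the first probe the wild-type signal was 3477, 5850.0 and 7482 and the mutant+CT signal 19217, 34709 and 13618. Each mutant+CT sample exceeded all wild-type samples, with replicate 3 showing the smallest difference. Its log2 ratios were 2.28, 2.40 and 0.93, with a mean of 1.87 ± 0.82 (SD, n = 3; limma adjusted p 0.101). At the last probe the wild-type signal was 24133, 17018 and 29018, against 55384, 87074 and 49945 in mutant+CT. The groups did not overlap there either. Log2 ratios were 1.31, 1.95 and 0.90, with a mean of 1.39 ± 0.53 (SD, n = 3; limma adjusted p 0.110). Neither outer probe passed the test. The 3 probes therefore gave mean changes of 22.5-fold, 3.65-fold and 2.61-fold for 1 gene, and the difference between probes was not tested.

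Mirg, a noncoding RNA further along the maternal transcription unit and host of a microRNA cluster, was also higher on every array at both probes. At the first probe the wild-type signal was 1097, 2000.1 and 1247. In mutant+CT it was 16591, 9994 and 10211. All mutant+CT samples lay above all wild-type samples. This gave log2 ratios of 3.65, 2.36 and 3.14, a mean of 3.05 ± 0.65 (SD, n = 3) or 8.28-fold, with a limma adjusted p of 0.0493. At the second probe the wild-type signal was 2115, 1848 and 2094 and the mutant+CT signal 5984, 7820.3 and 3818. The groups were again apart, with the smallest difference on replicate 3. The log2 ratio was 1.23, 2.13 and 0.99, with a mean of 1.45 ± 0.60 (SD, n = 3; limma adjusted p 0.114). In the RefSeq annotation of GRCm38.p6, 10 microRNA hairpins lie within the span of Mirg and 1 within that of Meg3. The microRNAs themselves were not measured here.

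The calls at the middle Meg3 probe and the first Mirg probe both ended without the filter on dim probes (adjusted p 0.102 and 0.115), with a dye term in the model (0.116 for each), without replicate 2 (0.0884 and 0.0997) and without replicate 3 (0.120 and 0.130), all by limma. The Mirg call also ended without background subtraction (0.0528), with median centring (0.0552) and with scaled arrays (0.0527). The ratios themselves kept their size, at 4.38 to 5.10 for the middle Meg3 probe and 2.75 to 3.39 for the first Mirg probe over 13 alternatives.

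**Figure D1:**
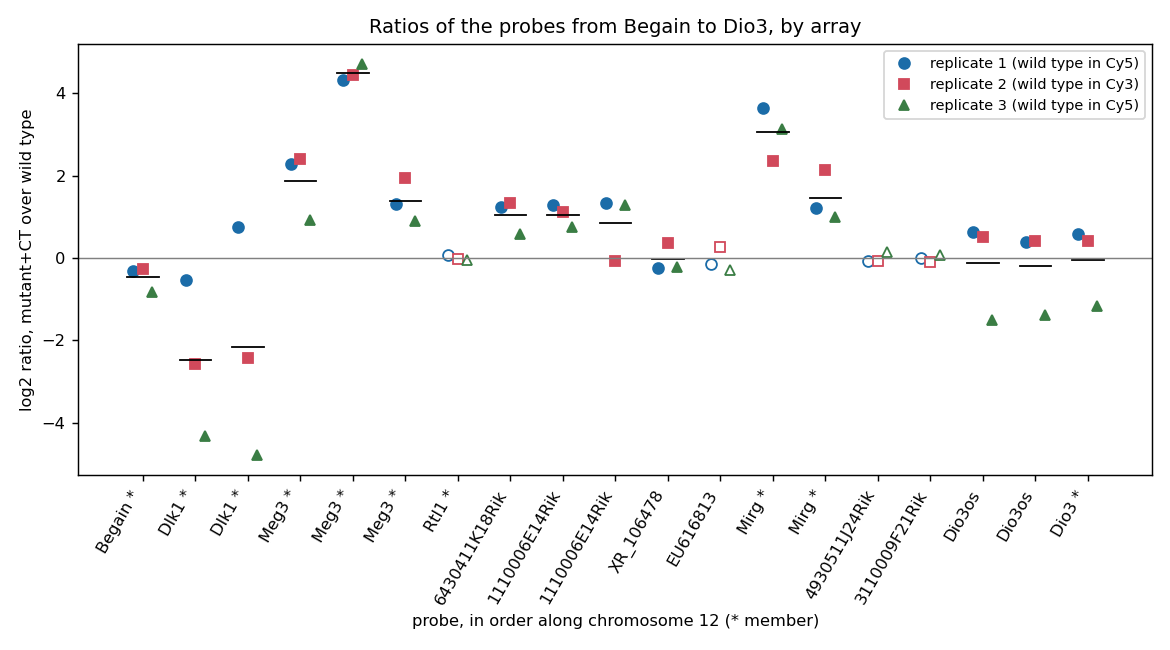
Log2 ratio of mutant+CT over wild type for the 19 probes from Begain to Dio3, in order along the chromosome; symbols are the 3 arrays, black bars the means of probes that passed the filter, and open symbols probes that did not pass. All Meg3 and Mirg symbols lie above 0, while Dlk1 spreads from 0.76 to -4.79.

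Another 9 probes lie between the outermost probes of the region, under other names, and 6 of them passed the filter. The RNA antisense to Rtl1, 6430411K18Rik, is a maternally expressed transcript that carries microRNAs directed against Rtl1. Its wild-type signal was 73.0, 136 and 96.2 and its mutant+CT signal 301, 316 and 169. The mutant+CT samples lay above the wild-type ones. On the log2 scale the ratios were 1.24, 1.33 and 0.59, a mean of 1.05 ± 0.41 (SD, n = 3; limma adjusted p 0.144). Its wild-type signals were near the low end of the scale, and its mean ran from 0.92 to 2.03 over 13 alternatives. The RIKEN transcript 1110006E14Rik lies beside it and has a pair of probes. One read 1.28, 1.12 and 0.75 on the log2 scale, and the other 1.33, -0.08 and 1.30. Neither passed the test, with limma adjusted p of 0.124 and 0.322. The transcript XR_106478, between these and Mirg, read -0.23, 0.36 and -0.22. It had no constant direction. The probes of EU616813, 4930511J24Rik and 3110009F21Rik did not pass the filter.

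Dlk1, a transmembrane protein of the Delta-like family that is expressed from the paternal chromosome in embryonic mesoderm, placenta and pituitary, differed strongly between replicates. At its first probe (A_55_P2105371, chr12:110698502-110698561, plus strand) the wild-type signal was 5140.3, 4263 and 9322. The mutant+CT signal was 4216, 672 and 443. The mutant+CT samples were all below the lowest wild-type sample, barely so on replicate 1 and by far on replicates 2 and 3. After normalization replicate 1 of mutant+CT, at 12.19 on the log2 scale, lay within the wild-type range of 11.90 to 12.98, so the groups overlapped. The log2 ratio was -0.54, -2.57 and -4.32, with a mean of -2.47 ± 1.89 (SD, n = 3; limma adjusted p 0.183). At its second probe (A_66_P117477, chr12:110698721-110698781, plus strand) the wild-type signal was 7782, 22717 and 21634 and the mutant+CT signal 14488, 4519 and 738. Here the groups overlapped, because replicate 1 was higher in mutant+CT. Its log2 ratios were 0.76, -2.42 and -4.79, with a mean of -2.15 ± 2.79 (SD, n = 3; limma adjusted p 0.371).

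The spread of Dlk1 lay mainly in the mutant+CT samples. After normalization, the log2 signal of the first probe had an SD of 0.56 over the wild-type samples and 1.87 over the mutant+CT samples (n = 3 each). For the second probe these SDs were 0.60 and 2.30. Without replicate 1 the first probe averaged -3.44 with a limma adjusted p of 0.0499, past the threshold, and without replicate 3 it averaged -1.55. The second probe averaged -3.61 without replicate 1 and -0.83 without replicate 3. In bulk samples, fewer cells of a type and less RNA per cell cannot be told apart.

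**Figure D2:**
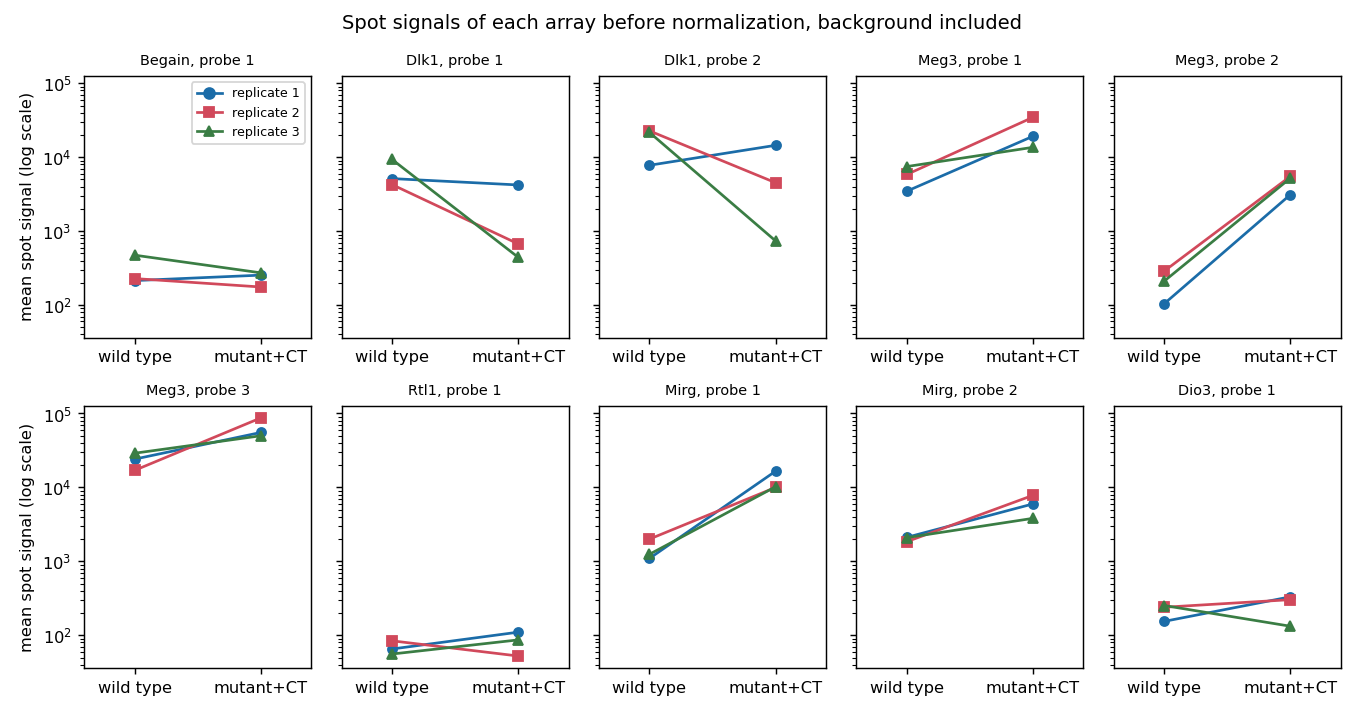
Mean spot signal before normalization, background included, on a log axis, for the 10 probes named after genes of the region; a line joins the wild-type and mutant+CT signal of 1 array. The lines of Meg3 and Mirg all rise, and those of Dlk1 fan out from 14488 to 738 in mutant+CT at the second probe.

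Rtl1, a retrotransposon-derived protein needed in placental vessels and expressed from the paternal chromosome, was measured by 1 probe (A_55_P1992774, chr12:110828379-110828438, minus strand). Its signal was 65.2, 84.1 and 55.8 in wild type and 110.1, 52.4 and 86.6 in mutant+CT. It was well above background only in wild type of replicate 1. It did not pass the filter, and no fold is given.

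Dio3, the paternally expressed deiodinase that inactivates thyroid hormone, had a wild-type signal of 154, 239.6 and 252 and a mutant+CT signal of 331, 303 and 132 (A_55_P2091468, chr12:111518792-111518851, plus strand). Mutant+CT was higher on replicates 1 and 2 and lower on replicate 3, so the groups overlapped. Log2 ratios were 0.58, 0.41 and -1.17, with a mean of -0.06 ± 0.96 (SD, n = 3; limma adjusted p 0.966). The sign of this mean turned under median centring, scaling of the arrays, a dye term and without replicate 3. Dio3os, the noncoding transcript that runs opposite to Dio3, has a pair of probes on the minus strand at chr12:111514921-111514980. They are printed because they are nearly the same sequence, so their likeness is no independent check. They differ at 3 of 60 bases, marked by capitals.
Dio3os probe 1 (A_55_P1962861): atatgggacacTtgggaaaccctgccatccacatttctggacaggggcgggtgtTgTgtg
Dio3os probe 2 (A_55_P2040476): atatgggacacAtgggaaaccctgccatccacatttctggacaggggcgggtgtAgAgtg
Dio3os probe 1 read 0.63, 0.52 and -1.51 and probe 2 read 0.39, 0.41 and -1.37 on the log2 scale. Both probes, like Dio3, were above 0 on replicates 1 and 2 and below it on replicate 3. Their means were -0.12 ± 1.21 and -0.19 ± 1.02 (SD, n = 3), with limma adjusted p of 0.937 and 0.885, and both means turned positive without replicate 3.

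Begain, which encodes a protein bound to the postsynaptic scaffold PSD-95 and lies at the Dlk1 end of the region, had a wild-type signal of 214, 228 and 473 and a mutant+CT signal of 254, 176 and 273 (A_55_P2062437, chr12:110270408-110270467, minus strand). These ranges overlapped. Its log2 ratio was -0.31, -0.26 and -0.83, with a mean of -0.47 ± 0.32 (SD, n = 3; limma adjusted p 0.410).

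Of the 9 probes of the region that passed the filter, 2 were called higher, the middle Meg3 probe and the first Mirg probe, where 0.331% of all 26318 probes were called higher. None was called lower by limma at adjusted p under 0.05, where 0.106% of all probes were. At an unadjusted p under 0.05, 5 were higher and 1, the first Dlk1 probe, was lower, against 9.45% and 7.07% of all probes. Without background subtraction the balance of calls among all probes moved, from 87 higher and 28 lower to 10 higher and 6 lower. The same 2 probes were at least 2-fold higher on every array, against 2.04% of all probes, and no probe of the region was 2-fold lower on every array, against 0.984%. Higher on every array at any size were 5 of the 9, all 5 of Meg3 and Mirg, against 20.4% of all probes. Lower on every array were 2 of the 9, Begain and the first Dlk1 probe, against 18.1%. The median ratio over the 9 probes was 1.39, and over all 26318 probes -0.01. Several of these probes share a gene or a transcription unit and are not independent.

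Within each array, the noncoding RNAs and Dlk1 were set side by side. The 5 Meg3 and Mirg probes averaged 2.55, 2.66 and 2.14 on replicates 1 to 3. The 2 Dlk1 probes averaged 0.11, -2.50 and -4.55, of which the value on replicate 1 joined -0.54 and 0.76. The Meg3 and Mirg average thus varied little between arrays, while that of Dlk1 covered the range from near 0 to far below. Singly the Meg3 and Mirg probes varied more, with SDs of 0.53 to 0.82, apart from the middle Meg3 probe at 0.21. The Meg3 and Mirg average minus the Dlk1 average was 2.44, 5.15 and 6.69, above 0 on all 3 arrays. The size of this difference followed the spread of Dlk1.

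The neighbourhood was described by the 56 probes within 1 Mb outside the region, of which 43 passed the filter. Their median ratio was 0.04, against 1.39 in the region. Of the 43, 1 was called higher and 0 lower, where 0.331% and 0.106% of all 26318 probes were. The called probe was of Rcor1, a partner of the REST repressor that lies beyond Dio3 (A_51_P494775, chr12:112351412-112351471, plus strand). Its wild-type signal was 119, 259 and 228 and its mutant+CT signal 936, 1304 and 790.1. The groups did not overlap. Ratios on the log2 scale were 2.43, 2.41 and 1.83, a mean of 2.22 ± 0.34 (SD, n = 3; limma adjusted p 0.0493). It was past the threshold under 5 of 13 alternatives, and leaving out any of the 3 arrays ended the call. A further Rcor1 probe (A_52_P535052) averaged 0.48 ± 0.11 (SD, n = 3), with a limma adjusted p of 0.351, so the probes of this gene disagreed in size. At least 2-fold higher on every array were 2 of the 43, against 2.04% of all probes, and 0 were 2-fold lower, against 0.984%. Besides the called Rcor1 probe this was 4930421J07Rik, which averaged 1.53 ± 0.47 (SD, n = 3; limma adjusted p 0.0882).

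**Figure D3:**
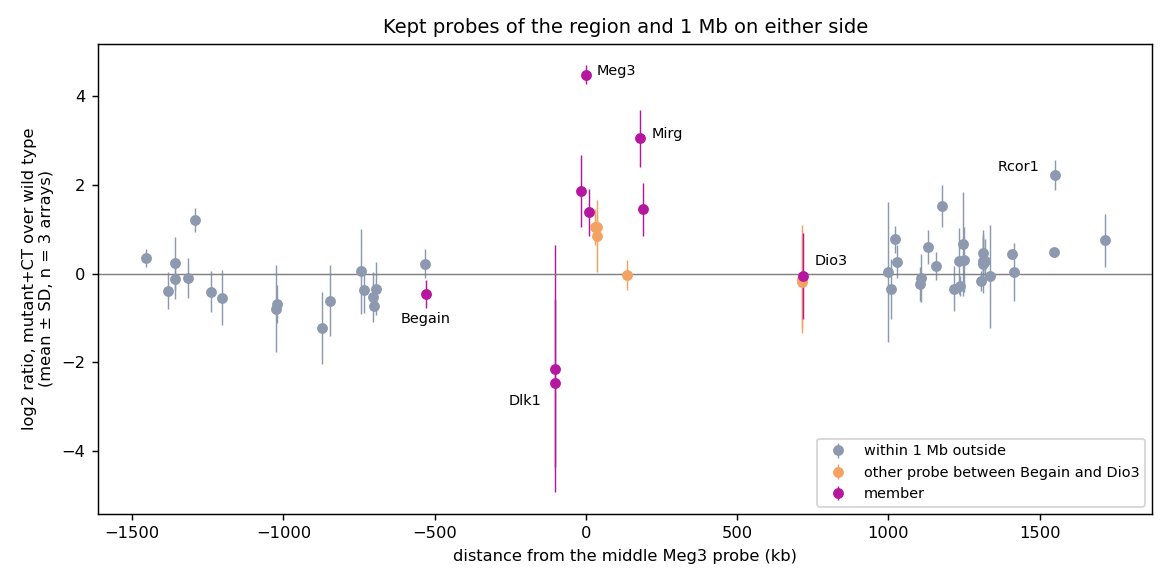
Mean log2 ratio of mutant+CT over wild type with its SD over 3 arrays for probes that passed the filter, plotted by distance in kb from the middle Meg3 probe. The Meg3 and Mirg probes stand above 1, Dlk1 lies below -2 with long error bars, and most neighbours lie near 0, with Rcor1 at 2.22.

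The promoter of Meg3 is shown because its probes and those of Mirg were higher together on every array. The window runs from 250 bases before to 50 bases after the first RefSeq start (chr12:109540746-109541045, plus strand, GRCm38.p6, a build that differs from that of the array).
Meg3 promoter: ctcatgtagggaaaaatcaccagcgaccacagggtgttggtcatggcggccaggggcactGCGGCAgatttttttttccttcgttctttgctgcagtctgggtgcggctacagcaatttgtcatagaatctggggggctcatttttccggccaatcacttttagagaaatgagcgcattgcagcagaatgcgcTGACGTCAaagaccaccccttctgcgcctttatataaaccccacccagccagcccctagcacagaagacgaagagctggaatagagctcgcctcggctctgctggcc
Capitals mark GCGGCA, the reverse complement of TGCCGC, and TGACGTCA, which reads the same on both strands. TGCCGC is the core bound by ZFP57 when methylated, and TGACGTCA is the binding motif of CREB. Both were searched on both strands and do not overlap. TGCCGC occurs in 11.6% and TGACGTCA in 1.79% of the 32851 RefSeq promoter windows of this length. A further RefSeq start of Meg3 has a window (chr12:109545148-109545447) that holds neither motif and 1 CG dinucleotide, more than 5.43% of all windows. The windows at the starts of Dlk1, Rian, Mirg, Dio3 and Begain hold neither. The printed Meg3 window has 13 CG dinucleotides, more than 62.1% of all windows. The matches are letters in a window, and neither binding nor methylation was measured.

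Genes related to the members by function, family or imprinting were taken from lists. They were tested as genes, each by its brightest probe that passed the filter, over 20390 genes. No gene of any list, and none of the 20390, passed an adjusted p of 0.05 by limma, and 1844 genes (9.04%) were higher and 1367 (6.7%) lower at an unadjusted p under 0.05. Meg3 enters this gene test by its last probe. Mirg enters it by its first probe, which was called among all probes but did not pass among the genes. At least 2-fold higher on every array were 387 genes (1.9%), and 202 (0.991%) were 2-fold lower. The median over all genes was 0.00.

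Among 16 proteins that keep or erase imprints, all 16 were measured, 6 were higher and 0 lower at an unadjusted p under 0.05, and the median ratio was 0.14. Tet1, an enzyme that oxidizes methylated cytosine, had the smallest p of the list. Its log2 ratio was 1.86, 2.09 and 2.29, a mean of 2.08 ± 0.22 (SD, n = 3; limma adjusted p 0.0735), and it was the 1 gene of the list 2-fold higher on every array. Dppa3, a protector of maternal methylation in the egg and early embryo that is known to guard the imprint of this region in reprogrammed cells, read 1.91, 0.19 and 4.81, with a mean of 2.30 ± 2.33 (SD, n = 3; limma adjusted p 0.292). Its replicates were far apart. Zfp57, which binds methylated imprint control elements, averaged 0.50 ± 0.39 and its cofactor Trim28 0.03 ± 0.56 (SD, n = 3). Zfp445, which also binds imprint control elements, averaged 1.12 ± 0.82 (SD, n = 3; limma adjusted p 0.243). The de novo methyltransferases Dnmt3a and Dnmt3b averaged -0.09 ± 1.08 and 0.99 ± 0.35, and their cofactor Dnmt3l 1.47 ± 1.29 (SD, n = 3 each; limma adjusted p 0.953, 0.166 and 0.264).

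Meg3 RNA is known to bind the Polycomb repressive complex PRC2. All 10 listed genes of PRC2 and its partners were measured, 3 were higher and 0 lower at an unadjusted p under 0.05, and none was 2-fold apart on every array. The median was 0.53. Phf19, a subunit that reads methylated histone H3, averaged 1.27 ± 0.47 (limma adjusted p 0.136) and the core subunit Suz12 0.72 ± 0.54 (limma adjusted p 0.316; SD, n = 3 each).

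Dlk1 belongs to the family of Notch ligands but lacks the domain that activates the receptor. All 16 listed genes of the Dlk and Notch family were measured, 3 were higher and 2 lower at an unadjusted p under 0.05, and the median was -0.08. The receptor Notch1 read 2.86, 1.498 and 3.44, a mean of 2.60 ± 1.00 (SD, n = 3; limma adjusted p 0.0966), the 1 gene of the list 2-fold higher on every array. The ligand Dll1 read -2.44, -0.78 and -2.51, a mean of -1.91 ± 0.98 (SD, n = 3; limma adjusted p 0.138). Dlk2, the closest relative of Dlk1, averaged -0.33 ± 0.45 (SD, n = 3).

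Of the thyroid hormone deiodinases, transporters and receptors, with which Dio3 acts, 9 of 12 were measured, 4 were higher and 1 lower at an unadjusted p under 0.05, and the median was -0.17. Klf9, a transcription factor induced by thyroid hormone, averaged 2.14 ± 0.64 (SD, n = 3; limma adjusted p 0.0901) and was 2-fold higher on every array. Of the retrotransposon-derived Gag genes related to Rtl1, 8 of 13 were measured, 1 was higher and 2 lower at an unadjusted p under 0.05, and the median was -0.06. Pnma2 averaged 3.05 ± 1.26 (limma adjusted p 0.0985), 2-fold higher on every array, and Rgag4 -1.47 ± 1.24 (limma adjusted p 0.253; SD, n = 3 each).

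Imprinted genes of other chromosomes formed the last list. All 20 were measured, 5 were higher and 5 lower at an unadjusted p under 0.05, and the median was -0.03. Cdkn1c, a maternally expressed inhibitor of the cell cycle, read -2.22, -2.25 and -3.41, a mean of -2.62 ± 0.68 (SD, n = 3; limma adjusted p 0.0843). Nnat, a paternally expressed membrane protein of neural tissue, read -1.42, -2.35 and -5.003, a mean of -2.93 ± 1.86 (SD, n = 3; limma adjusted p 0.158). These were the 2 genes of the list 2-fold lower on every array, and none was 2-fold higher. H19, a maternally expressed noncoding RNA like Meg3, read 0.72, 0.69 and 0.48 (limma adjusted p 0.258). Its probe was near the low end of the scale, at a mean normalized log2 signal of 6.62 in wild type and 7.25 in mutant+CT. The growth factor Igf2, the paternally expressed neighbour of H19, read 1.40, 0.24 and -2.30, again with replicate 3 the lowest. Peg10 stands in this list and in that of the Gag genes.

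Marker genes of the cell types that embryoid bodies can hold moved on the same arrays, and their part in the results of the region was not tested. The median log2 ratio of the 13 measured of 13 mesenchyme markers was 3.21, -1.43 and -0.91 on replicates 1 to 3. For 13 of 14 cardiomyocyte markers it was 2.42, -1.17 and -0.94, and for 9 of 10 endothelium markers 1.23, -0.84 and -0.86. These 3 lists were thus above 0 on replicate 1 and below it on replicates 2 and 3. The Dlk1 average was 0.11, -2.50 and -4.55 on replicates 1 to 3. Its value on replicate 1 joined probes at -0.54 and 0.76. The 12 of 14 neural progenitor markers had medians of -2.55, -1.16 and -3.76, the 12 of 12 neuron markers -0.79, -0.37 and -2.58, and the 11 of 11 parietal endoderm markers -2.27, -1.09 and -1.48. Above 0 on every array were the medians of 15 of 15 naive pluripotency markers (0.77, 1.28 and 2.62), 12 of 12 visceral endoderm and yolk sac markers (1.69, 1.17 and 0.62), 11 of 13 trophoblast markers (1.27, 0.81 and 0.83) and 7 of 12 skeletal muscle markers (0.89, 0.27 and 0.98). The 5 of 10 measured pituitary and adrenal markers, of tissues that express Dlk1, had medians of -0.30, 0.33 and -0.09. Some genes stand in 2 lists.

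**Figure D4:**
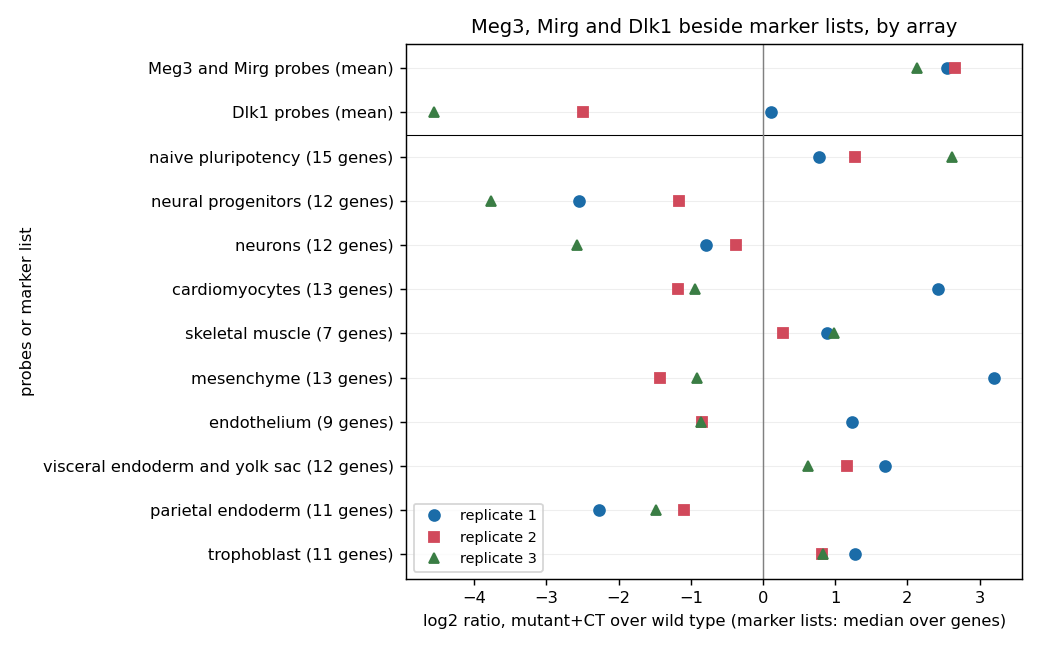
Log2 ratio of mutant+CT over wild type on each array, as the mean of the Meg3 and Mirg probes, the mean of the Dlk1 probes, and the median of 10 marker lists. The Meg3 and Mirg symbols, means of probes most of which varied more singly, sit close together between 2.14 and 2.66. The Dlk1 mean and the cardiomyocyte, mesenchyme and endothelium lists are above 0 on replicate 1 alone. On replicate 1 the single Dlk1 probes read -0.54 and 0.76. The visceral endoderm and yolk sac and trophoblast lists also have replicate 1 highest.

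The genes most like Meg3 and Dlk1 over the 3 ratios were found by Euclidean distance among 20347 genes outside the region and its neighbourhood. Closest to the last Meg3 probe were Abcc2, at a distance of 0.0478, Slc25a30 at 0.175 and Dand5 at 0.244. Closest to the second Dlk1 probe were Col9a1, a cartilage collagen that read 0.58, -3.03 and -5.18 (distance 0.747), the embryonic globin Hbb-y, which read 0.62, -3.18 and -4.12 (1.02), and Nrep, which read -0.17, -2.13 and -4.16 (1.16). A likeness over 3 arrays is a description.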

How the data were processed

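RNA of wild-type and mutant+CT embryoid bodies was hybridised in pairs to 3 Agilent 2-colour arrays of 1 slide. The deposited scanner files hold intensity values of each spot and its background in both dyes, as Feature Extraction 10.7.3.1 wrote them, per the file headers. These deposited files also give a log10 ratio of red over green, used only to check direction. The deposited value table holds the authors' log2 ratios, for which the submitters' processing notes name limma; its medians are -0.02, 0.01 and -0.02, its direction was found to be mutant+CT over wild type, and its exact steps are not given in the sources used here. It served as an alternative and correlated with the ratios computed here at 0.994, 0.996 and 0.998.

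Ratios were computed in R 4.3.3 with limma 3.58.1 from the spot and background signals: normexp with an offset of 50, loess within arrays, control spots at weight 0, and outlier spots (454, 234 and 507) set to missing. Probes that were well above background on all 3 arrays in either group and not missing on any were tested against 0 with lmFit and eBayes, with Benjamini-Hochberg adjustment over all of them at 0.05. Ratios of red over green were turned by sign on replicates 1 and 3, where wild type was red, which gives every array the same direction. Genes were represented by their brightest such probe and named by accession from RefSeq (15266 of 20390 genes) or else by the files. Lists counted as measured the genes with such a probe. In simulated data, 0, 6, 25 and 34 of 50 probes changed by a log2 size of 1, 2, 3 and 4 were called, with 1 false call among the 25098 probes used. The simulated noise was independent between probes and arrays, and no probe had a dye effect of its own. The number of false calls may therefore not hold for the real arrays. The number of arrays limits the precision, and the labels call the samples biological replicates without saying more of their origin.

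Named are all probes of the region and the interval, the neighbours at least 2-fold apart on every array, in each related list the gene with the smallest p and the 2 with the largest mean ratios, and the 3 genes nearest to Meg3 and to Dlk1. A few related genes were named beyond this rule after their values were seen (Zfp57, Zfp445, Trim28, Dnmt3a, Dnmt3b, Dnmt3l, Dlk2, H19, Igf2 and Peg10). One gene that this rule names and 1 probe sequence are not reported here. The members and lists were chosen with earlier results of these data known. As alternatives, signals were left unsubtracted or taken as processed by Agilent, arrays were centred on the median or scaled to 1 spread, the filter was dropped or asked of both groups, outlier spots were kept, the authors' table was fitted, and the model was given a dye term or a trended, robust prior. Others were an adjusted p under 0.1, the mean of all probes of a gene, and leaving out each array.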

Additional observations from a re-analysis of the deposited data

How the results depend on the processing

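The main fit is paired, since each array ratio is the difference of the 2 RNAs that share a replicate number, and no unpaired fit was made. Of the probes of the region, 2 passed an adjusted p of 0.05 by limma. The number was 1 without background subtraction, with median centring and with scaled arrays, 0 without the filter and with a dye term, and 0 to 3 when an array was left out. The number at least 2-fold apart on every array was 2, with 2 to 5 when an array was left out: 4 without replicate 1 and 5 without replicate 3. The median of 1.39 became 0.69 without the filter, which adds Rtl1, and 1.10 to 1.63 when an array was left out. Of genes in the 6 related lists, 7 were 2-fold apart on every array, with 10 to 17 when an array was left out (17 without replicate 1, 11 without replicate 3). None passed an adjusted p of 0.05 in limma, against 3 with Agilent's processed signals, 3 with a trended and robust prior, 6 at an adjusted p under 0.1, and 0 to 3 when an array was left out (3 without replicate 1). Among all kept probes 115 passed, against 16 without background subtraction, 739 with processed signals, 40 with median centring, 53 with scaled arrays, 469 with the trended prior, 673 at 0.1, and 0 without the filter, with a dye term, without replicate 2 and without replicate 3. Among all genes 0 passed, against 286 with processed signals, 12 with the filter in both groups, 176 with the trended prior, 298 at 0.1 and 159 without replicate 1. Apart from the probe added to the median, the cause was not tested.

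Values near 0 turned sign. The Dio3 mean was 0.0090 with median centring, 0.035 with scaled arrays, 0.058 with a dye term and -0.38 to 0.50 when an array was left out. Probe 1 of Dio3os read 0.039 with a dye term. With an array left out, Dio3os ran from -0.50 to 0.58 at probe 1 and from -0.49 to 0.40 at probe 2. XR_106478 read 0.030 with median centring, 0.066 with a dye term and -0.22 to 0.070 when an array was left out, and Igf2 ran from -1.03 to 0.82. Positive values came without replicate 3, and for XR_106478 also without replicate 1. The mean ratios of all 5 Meg3 and Mirg probes, both Dlk1 probes and Begain kept their direction under all 13 alternatives.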

Other observations

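The marker lists hold single genes with larger ratios than their medians, none of which passed an adjusted p of 0.05 by limma; values are means ± SD of the 3 log2 ratios. Among naive pluripotency markers, Dppa2 read 1.65 ± 0.18, Nr0b1 2.67 ± 0.91 and Tcl1 2.47 ± 1.40. In that list 12 of 15 genes were higher on every array, but not Klf4 at -0.68 ± 1.01, Nanog at 0.09 ± 0.09 and Sox2 at 0.16 ± 0.62. The Nanog probe was near the low end of the scale in both groups, so its ratio says little. Its mean normalized log2 signal was 6.73 in wild type and 6.83 in mutant+CT. The trophoblast protease Ctsj read 3.42 ± 0.42 and the placental hormone Prl3b1 2.52 ± 1.57, and in visceral endoderm and yolk sac the plasma proteins Apoa1 and Trf read 2.12 ± 0.58 and 2.24 ± 1.09. Among neural progenitor markers, Rax read -2.50 ± 0.35, Hes5 -3.92 ± 1.49 and Fabp7 -4.24 ± 2.02. In the neuron list Elavl3 read 1.17 ± 0.30, opposite to Stmn3 at -2.27 ± 1.32 and to Dcx at -3.07 ± 2.12, for which 1 mutant+CT channel alone was well above background. The parietal endoderm genes Thbd and Col4a1 read -3.00 ± 1.58 and -2.68 ± 1.03. In that list 8 of 11 genes were lower on every array, but Krt19, at 0.79 ± 0.60, was higher on every array. Sparc read 0.17 ± 0.35.

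The cardiomyocyte genes Myh6 and Tnnt2 read 4.12, 0.75 and 0.35 and 3.78, 1.18 and -0.26 on replicates 1 to 3. Gata4 read -0.67 ± 0.29. The median of the cardiomyocyte list was 0.13, and by replicate it was 2.42, -1.17 and -0.94. Myh6 and Tnnt2 thus lay above the list median on each array and do not stand for the list. The mesenchyme genes Thy1 and Pdgfra read 1.14 ± 1.15 and -1.06 ± 0.54. The endothelial genes Pecam1 and Flt1 read 1.26 ± 0.57 and 1.23 ± 1.00, opposite to Esam at -1.16 ± 0.98 and Cdh5 at -0.98 ± 1.15. The median of the endothelium list was -0.09. The skeletal muscle genes Myh3 and Tnnc2 read 1.43 ± 0.77 and 1.09 ± 0.42, and in the pituitary and adrenal list Th read -0.88 ± 0.96 and Pnmt 0.30 ± 0.16.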
